A study of Mus musculus with 12 samples.

Results

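The respiratory chain is built from the subunits of 4 protein complexes (I to IV) in the inner mitochondrial membrane, and ATP synthase (complex V) uses the proton gradient they make. Genes were taken as members where their symbol matched the naming pattern of the nuclear-encoded subunits (Nduf, Sdh, Uqcr, Cyc1, Cox4 to Cox8 and Atp5). That gave 82 of the 19937 genes measured, with 35 in complex I, 4 in complex II, 9 in complex III, 17 in complex IV and 17 in complex V. The pattern reads symbols only, so Ndufa4, which is now placed in complex IV, was counted with complex I. Genes of this pattern without a probe set to themselves, such as Cox7c and Ndufb4, were not analysed here as members.

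The study examined rhabdomyosarcoma, a muscle-like tumour, in mice, where it was driven by YAP1, the effector of the Hippo growth-control pathway. Donor and control mice shared a C57BL/6 background and the alleles Myf5Cre, R26-LSL-rtTA and Col1a-Teto-hYAP1 S127A, so that doxycycline switches on a mutant human YAP1 in cells with a history of Myf5, a muscle precursor gene. Interstitial cells of hindlimb muscle from donors given doxycycline for 4 weeks were grafted into the gastrocnemius muscle of NOD/SCID hosts, which lack mature B and T cells and were also given doxycycline. Tumours were taken with doxycycline still on (TUM, day 0), or after 3 (OFF3) or 6 days (OFF6) without it, and the controls (CTL) were hindlimb muscles from mice of the donor genotype that were not induced. There were 3 arrays for each of these groups, and the labels do not say whether these came from separate animals. The tumours lay in host muscle, so host fibres, vessels and immune cells can be in the samples. Doxycycline and the YAP1 it switches on were not varied apart, so their effects cannot be told apart here.

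Muscle fibres carry dense mitochondria and make several subunits of complex IV (cytochrome c oxidase) in a form of their own. Cox6a2, Cox7a1 and Cox8b encode the forms of heart and skeletal muscle, and Cox6a1, Cox7a2 and Cox8a those found in most tissues. Subunits of the other complexes mostly have 1 form, and their genes are known to be driven together by NRF1, GABP and the estrogen-related receptors with the coactivator PGC-1alpha.

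Median probe intensity per array ran from 86.74 to 93.05. OFF6 replicate 2 stood apart: over all genes its mean correlation with the other OFF6 arrays was 0.9911, against 0.9952 with the OFF3 arrays. Some results with OFF6 are also given without it. A value for 1 array below is the log2 intensity of 1 probe set, so levels are compared between arrays and not between genes. Differences are log2 values ± standard error, of 3 arrays against 3 unless an array is named as left out, and a gene was called where its limma p, adjusted over all genes, was under 0.05. OFF3, OFF6 and CTL were each set against the same TUM arrays, so those comparisons are not independent.

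The 3 muscle isoforms of cytochrome oxidase rose after doxycycline was removed, while none of the 3 general isoforms did. Cox6a2 rose 2.04-fold by day 3 and 2.83-fold by day 6, Cox7a1 2.65-fold and 2.74-fold, and Cox8b 2.58-fold and 2.59-fold. In control muscle the same genes stood 6.31-fold (Cox6a2), 16.3-fold (Cox7a1) and 8.31-fold (Cox8b) above the tumours. Cox6a1 and Cox8a were the only members of the 82 that were lower in control muscle than in TUM. In these bulk samples, fewer cells of a type and less RNA per cell cannot be told apart.

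The sequences just before the start of these genes are shown because the isoform pairs moved apart. RefSeq's promoter table for GRCm38.p6 held 66 of the 82 members and 5 of the 6 isoforms, and Cox6a2 had no entry. Each line below runs 5′ to 3′ over the 250 bases before the start, read on the strand of the gene, and capitals mark matches to the motifs searched.
Cox7a1, chr7:30183921-30184170, plus strand: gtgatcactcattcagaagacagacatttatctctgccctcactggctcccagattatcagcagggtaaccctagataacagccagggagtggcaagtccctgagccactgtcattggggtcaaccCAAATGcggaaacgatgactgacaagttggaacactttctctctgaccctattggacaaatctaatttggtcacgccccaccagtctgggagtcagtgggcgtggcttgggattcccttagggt
Cox8b, chr7:140900447-140900696, minus strand: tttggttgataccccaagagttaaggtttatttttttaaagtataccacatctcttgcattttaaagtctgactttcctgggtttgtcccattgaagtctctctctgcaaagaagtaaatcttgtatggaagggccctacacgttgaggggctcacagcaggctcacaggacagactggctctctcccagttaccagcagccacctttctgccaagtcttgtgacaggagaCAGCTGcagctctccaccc
Cox6a1, chr5:115348959-115349208, minus strand: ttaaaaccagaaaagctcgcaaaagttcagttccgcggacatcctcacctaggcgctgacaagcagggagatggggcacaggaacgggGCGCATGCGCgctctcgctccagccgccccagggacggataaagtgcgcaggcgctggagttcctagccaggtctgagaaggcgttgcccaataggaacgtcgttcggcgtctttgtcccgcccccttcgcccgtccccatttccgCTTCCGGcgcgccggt
Cox7a2, chr9:79759854-79760103, minus strand: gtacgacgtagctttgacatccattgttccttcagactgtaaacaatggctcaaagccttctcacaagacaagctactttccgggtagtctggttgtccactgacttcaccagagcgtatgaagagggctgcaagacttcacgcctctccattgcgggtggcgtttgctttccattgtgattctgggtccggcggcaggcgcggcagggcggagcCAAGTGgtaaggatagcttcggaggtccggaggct
Cox8a, chr19:7217617-7217866, minus strand: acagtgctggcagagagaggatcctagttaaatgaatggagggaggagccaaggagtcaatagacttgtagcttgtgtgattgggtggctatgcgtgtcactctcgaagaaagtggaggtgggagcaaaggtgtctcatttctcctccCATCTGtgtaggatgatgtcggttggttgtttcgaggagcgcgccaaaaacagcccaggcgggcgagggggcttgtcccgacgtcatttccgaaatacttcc
The motifs were CANNTG (E-box), AGGTCA (nuclear receptors), CCGGAAG (ETS or GABP), GCGCATGCG (NRF1), AAGATGGC (YY1) and, for MEF2, TATTTATA and TAAAAATA, on both strands. In the promoter of Cox6a1 the NRF1 letters matched on both strands at overlapping positions, which the longer run of capitals covers, and CCGGAAG matched in reverse near the start. The promoters of Cox7a1, Cox8b, Cox7a2 and Cox8a each held 1 E-box in the stretch shown. Across or after the start, and so not in capitals, CCGGAAG matched in reverse in Cox8a from -5 and from 33. Cox8b had a further E-box there, from 17. Cox8b had 1 CG dinucleotide in its 250 bases and Cox7a1 had 4, the lowest count of the 66 members and the next one up, which Cox7a1 shared with Ndufc2. Cox8a had 11, Cox7a2 14 and Cox6a1 26, against a median of 14.0 over the members and 6.0 over 27025 genes.

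Over windows from 250 bases before to 50 after the start, the NRF1 letters were in 12.1% of member promoters and 1.95% of all promoters. CCGGAAG was found for 25.8% of members against 9.93% of all genes, and AAGATGGC for 15.2% against 3.19%. E-box letters were found for 68.2% against 75% of all, and AGGTCA for 22.7% against 18.1%. Neither MEF2 form was found for any of the 66 members, and they were found for 2.01% (TATTTATA) and 3.09% (TAAAAATA) of all genes. A match is a run of letters and not a measured binding site. Members also held more CG dinucleotides (median 14.0 against 6.0), and the part of base composition in these shares was not tested.

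Cox7a1, which has the largest difference of all members between control muscle and tumour, read 12.41, 12.48 and 12.35 in the CTL arrays and 8.48, 8.44 and 8.25 in TUM. In OFF3 it read 9.75, 9.80 and 9.84, and in OFF6 9.89, 9.74 and 9.90. Every array after withdrawal lay above every TUM array and below every CTL array. The difference from TUM was 1.41 ± 0.07 at day 3 (adjusted p = 6.94e-08), 1.45 ± 0.07 at day 6 (adjusted p = 4.58e-08) and 4.03 ± 0.07 in control muscle (adjusted p = 6.31e-13). Between day 3 and day 6 it differed by 0.05 ± 0.07 (adjusted p = 0.779).

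Cox8b read 12.88, 12.87 and 12.88 in CTL and 9.73, 9.98 and 9.74 in TUM. It read 11.02, 11.28 and 11.26 in OFF3 and 11.14, 11.34 and 11.08 in OFF6. As with Cox7a1, the groups after withdrawal overlapped each other and no other group. The difference from TUM was 1.37 ± 0.09 at each time (adjusted p = 5.26e-07 at day 3 and 3.91e-07 at day 6) and 3.06 ± 0.09 in CTL.

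Cox6a2 read 12.48, 12.53 and 12.58 in CTL, 9.80, 9.96 and 9.85 in TUM, 10.70, 10.80 and 11.21 in OFF3, and 11.47, 11.12 and 11.52 in OFF6. OFF3 replicate 3 was above the lowest OFF6 array, which was replicate 2, so these groups overlapped. The difference from TUM was 1.03 ± 0.13 at day 3 (adjusted p = 6.8e-05) and 1.5 ± 0.13 at day 6 (adjusted p = 2.31e-06). The further rise from day 3 to day 6 was 0.47 ± 0.13 (adjusted p = 0.0384), and it was no longer called under 11 of 22 alternative settings. Among these were the fits without any 1 of the TUM arrays, CTL replicate 2 or 3, OFF3 replicate 1 or 2, or OFF6 replicate 1 or 3, where it ran from 0.37 to 0.63 over all fits that left out 1 array (adjusted p up to 0.175).

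Of the general isoforms, Cox6a1 read 8.93, 9.13 and 9.16 in CTL against 10.77, 10.61 and 10.66 in TUM. It read 10.81, 10.68 and 10.62 in OFF3 and fell to 10.38, 10.47 and 10.29 in OFF6, below every TUM array. The fall by day 6 was -0.30 ± 0.08 (adjusted p = 0.0127), and control muscle stood at -1.61 ± 0.08 from TUM, 3.05-fold lower. The day 6 fall was not called without TUM replicate 1 or OFF6 replicate 3 (-0.35 to -0.26 over fits that left out 1 array, adjusted p up to 0.0647). Cox8a read 10.42, 10.30 and 10.32 in CTL, and its 9 tumour arrays ran from 11.16 to 11.26. Its control muscle value was 1.80-fold lower than TUM (-0.85 ± 0.06, adjusted p = 2.26e-08), while OFF6 differed from TUM by 0.05 ± 0.06 (adjusted p = 0.571). Cox7a2 differed from the other general isoforms in being higher in control muscle, at 10.90, 11.03 and 11.00 against 10.41, 10.38 and 10.43 in TUM. That is 0.57 ± 0.05 (adjusted p = 8.02e-07), and at day 6 it differed from TUM by 0.10 ± 0.05 (adjusted p = 0.193).

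**Figure D1:**
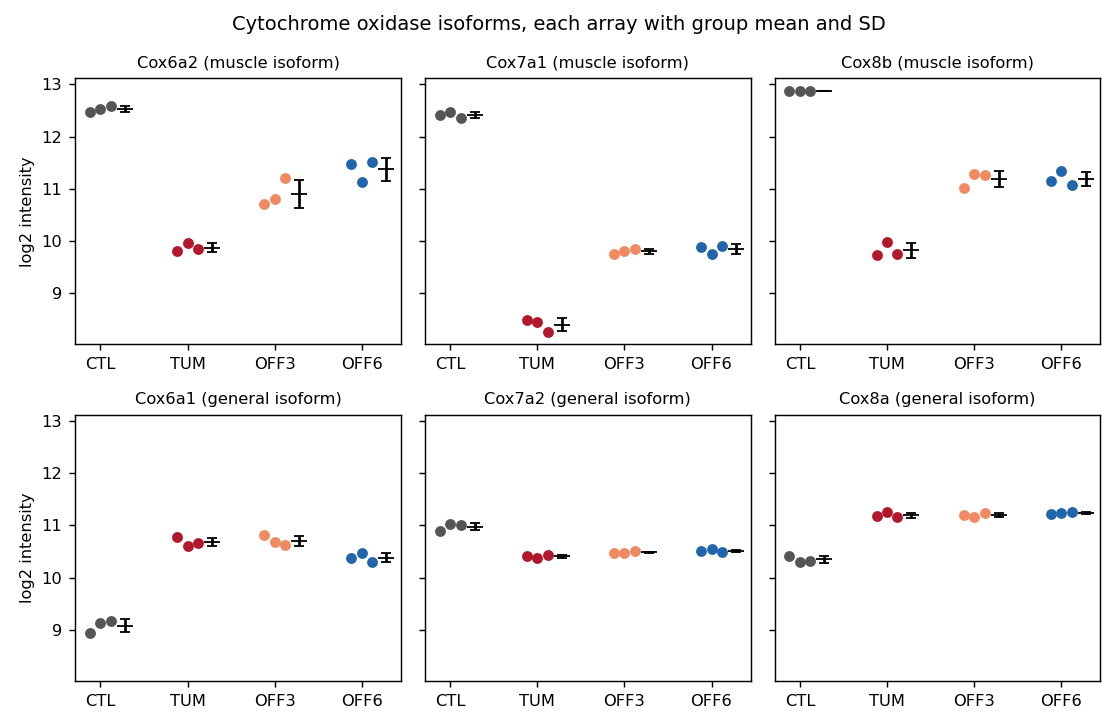
Log2 intensity (vertical axes, 1 shared scale) of the 3 muscle isoforms in the upper row and the 3 general isoforms in the lower row, with 1 point per array, grouped as CTL, TUM, OFF3 and OFF6 along the horizontal axes. Horizontal ticks are group means and vertical bars are 1 SD over 3 arrays. In the upper row OFF3 and OFF6 lie between TUM and CTL, and in the lower row Cox6a1 and Cox8a are lowest in CTL.

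Taking the muscle minus the general isoform within each array tests whether the 2 forms changed unequally. From TUM to control muscle the pairs moved apart by 4.27 ± 0.17 (Cox6a2 minus Cox6a1), 3.45 ± 0.08 (Cox7a1 minus Cox7a2) and 3.90 ± 0.09 (Cox8b minus Cox8a). By day 3 they had moved by 1.00 ± 0.17, 1.33 ± 0.08 and 1.37 ± 0.09, with adjusted p = 0.000756, 2.39e-07 and 4.66e-07. By day 6 the values were 1.80 ± 0.17, 1.35 ± 0.08 and 1.32 ± 0.09, with adjusted p = 5.71e-06, 1.4e-07 and 4.33e-07. All 3 pairs lay above every TUM array at both times, and at day 6 they still stood -2.47 ± 0.17, -2.10 ± 0.08 and -2.58 ± 0.09 from control muscle.

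Between day 3 and day 6 the Cox6a pair was the one of the 3 that was called. Relative to the TUM mean it stood at 0.69, 0.92 and 1.40 in the OFF3 arrays and 1.90, 1.46 and 2.04 in the OFF6 arrays, without overlap. The step was 0.80 ± 0.17 (adjusted p = 0.015), made up of the rise of Cox6a2 and the fall of Cox6a1. It was not called without OFF3 replicate 1 (0.64, adjusted p = 0.0579), OFF3 replicate 2 (0.76, 0.0571), OFF6 replicate 1 (0.75, 0.0697) or OFF6 replicate 3 (0.68, 0.0823). The other pairs differed by 0.02 ± 0.08 (Cox7a, adjusted p = 0.917) and -0.04 ± 0.09 (Cox8, adjusted p = 0.858). Whether the Cox6a step differs from the other pairs' was not tested.

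**Figure D2:**
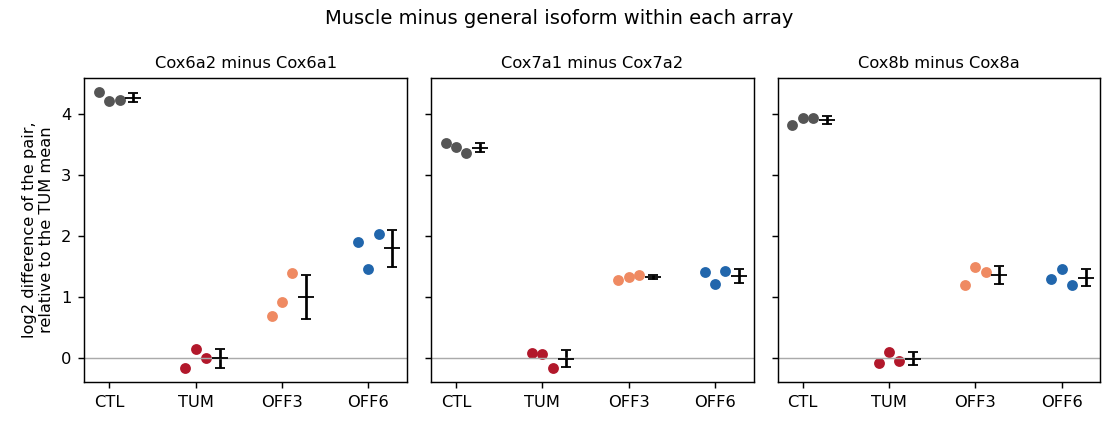
Muscle minus general isoform within each array, in log2 units relative to the TUM mean (vertical axis), for the Cox6a, Cox7a and Cox8 pairs. Points are arrays, ticks are group means and bars are 1 SD over 3 arrays. OFF3 and OFF6 lie above TUM in each panel and well below CTL, and OFF6 lies above OFF3 in the Cox6a panel alone.

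Markers of adult muscle fibres moved with these isoforms. Of 18 such markers, 17 rose at day 3 and 17 at day 6, with medians of 1.13 and 1.16, and all 18 were higher in control muscle (median 2.14). That is 94.4% called at each time, against 29.4% and 31.5% of all genes, and 100% against 76.2% between muscle and tumour. Their summed intensity was 35500 to 38000 in TUM, 64100 to 83200 in OFF3, 68600 to 72500 in OFF6 and 138000 to 143000 in CTL. Tcap, a Z-disc protein, rose most at day 6 (1.94), and Pvalb, a calcium buffer of fast fibres, at day 3 (1.95). At day 6 Pvalb differed by 0.10 ± 0.40 (adjusted p = 0.869), and without OFF6 replicate 2 by -0.53. Without that array 17 of the 18 markers were called higher and 1 lower at day 6. The part of fibre content, from tumour or host, in the isoform values was not tested.

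Cox7a1 and Cox8b are also used by brown fat, so fat markers were read beside them. Of 11 adipocyte and brown fat markers, 2 rose at each time, Ppargc1a and Dio2. That is 18.2% called, below the 29.4% of all genes at day 3 and 31.5% at day 6. Ppargc1a was higher in control muscle than in TUM (4.41 ± 0.15), while Dio2 was lower there (-0.89 ± 0.07) and so moved away from it. Without OFF6 replicate 2, 1 marker of the list also fell at day 6. Ucp1, which defines brown fat, read 4.78 in TUM, 4.76 in OFF3, 4.83 in OFF6 and 4.85 in CTL, with no call in any of these groups against TUM. In control muscle, however, 8 of the 11 were higher than in TUM and 1 was lower. That is 81.8% called, against 76.2% of all genes (45.9% higher and 30.3% lower). Among the 8 were Adipoq (2.74 ± 0.27), Prdm16 (0.53 ± 0.09) and Cidea (0.29 ± 0.08). The part of fat cells in the isoform values was not tested. The summed intensity of the list was 1070 to 1120 in TUM, 1310 to 1570 in OFF3, 1330 to 1790 in OFF6 and 4670 to 4800 in CTL.

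Control muscle held more transcript than the tumours for nearly the whole chain. Of the 82 members, 77 were higher, 2 were lower and 3 were not called, where 76.2% of all genes were called in this comparison (45.9% higher and 30.3% lower). The median difference was 1.11, against 0.15 over all genes. Centring the arrays on their 75th percentile moved the medians to 1.34 and 0.38 and the split of all genes to 63.8% higher and 24.2% lower. On the CTL arrays, 80 members lay wholly above TUM and 2 wholly below, as did 50.4% and 32.3% of all genes. The 35 members of complex I (median 1.14), the 4 of complex II (1.41) and the 9 of complex III (1.11) were all called higher. Complex IV had 14 higher and 2 lower of 17 (0.57), and complex V 15 higher of 17 (0.98).

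In complex I, which takes electrons from NADH, the largest differences between muscle and tumour were in Ndufb2 (2.00 ± 0.09), an accessory subunit of the membrane arm, Ndufs1 (1.91 ± 0.08), the largest core subunit with iron-sulfur clusters, and Ndufs5 (1.88 ± 0.13), an accessory subunit. The smallest was Ndufc2 at 0.51 ± 0.06 (adjusted p = 7.7e-06). In complex II, which takes electrons from succinate, the iron-sulfur subunit Sdhb led with 1.79 ± 0.06 and the flavoprotein Sdha followed with 1.49 ± 0.07. In complex III the Rieske iron-sulfur protein Uqcrfs1 led with 1.92 ± 0.07, followed by the small subunit Uqcr11 (1.37 ± 0.10) and the core protein Uqcrc1 (1.33 ± 0.08). In ATP synthase the leaders were Atp5e (1.77 ± 0.08), the epsilon subunit of the catalytic head, and Atp5l (1.75 ± 0.21) and Atp5k (1.67 ± 0.11), which lie in the membrane part.

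Members not called between muscle and tumour were Atp5d (0.13 ± 0.07, adjusted p = 0.106), the delta subunit of the head, Atp5g2 (0.04 ± 0.05, adjusted p = 0.454) and Cox7b2 (0.13 ± 0.06, adjusted p = 0.0505), a testis isoform. Atp5g1, Atp5g2 and Atp5g3 all encode the same mature c-ring subunit. Atp5g1 was higher in muscle by 0.79 ± 0.06 and Atp5g3 by 1.16 ± 0.08. Atp5g2 read 12.41, 12.39 and 12.41 in CTL and 12.38, 12.32 and 12.37 in TUM, close together but without overlap. A dimmer probe set of Atp5g2 was called in this comparison (0.31 ± 0.13, adjusted p = 0.0451) and another was not (0.24 ± 0.16, adjusted p = 0.192). Isoforms used in other tissues differed by less than the median member: Cox4i2, of lung and hypoxic cells, 0.63 ± 0.08, and the testis forms Cox6b2 and Cox8c 0.34 ± 0.11 and 0.42 ± 0.11. The call of Cox6b2 was lost without CTL replicate 3 or TUM replicate 3 (adjusted p up to 0.0673). Cox4i1, the general partner of Cox4i2, differed by 1.13 ± 0.06. Ordered by mean level over all arrays, the 28 lowest members had a median difference of 1.42, the next 27 one of 1.18 and the 27 highest one of 0.87.

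After 3 days without doxycycline, 35 of the 82 members rose and 2 fell, where 29.4% of all genes were called (13.4% higher and 16.0% lower). The median was 0.16, against 0.02 over all genes, so most of the rises were small. After centring on array medians 27 members were called (24 higher and 3 lower), which is 32.9% of them against 29.5% of all genes (10.7% higher and 18.8% lower). Without OFF3 replicate 3, 22 were called, or 26.8% against 24.7% of all genes. Under those settings the share of members called lay near that of all genes. At day 6, 53 rose and 1 fell, with 31.5% of all genes called (14.9% higher and 16.6% lower) and a median of 0.28 against 0.05. At day 3 the arrays of 45 members lay wholly above TUM and of 3 wholly below, against 22.1% and 22.7% of all genes. At day 6 the counts were 60 and 1, against 26.9% and 21.6% of all genes. Of the members, 34 were called at both times, 3 only at day 3, 20 only at day 6 and 25 at neither. The 3 muscle isoforms rose more than any other member at both times. No other member differed from TUM by more than 0.80. Of the 37 calls at day 3, 19 held whichever 1 array was left out, as did 41 of the 54 at day 6, and those of the muscle isoforms were among them at both times.

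**Figure D3:**
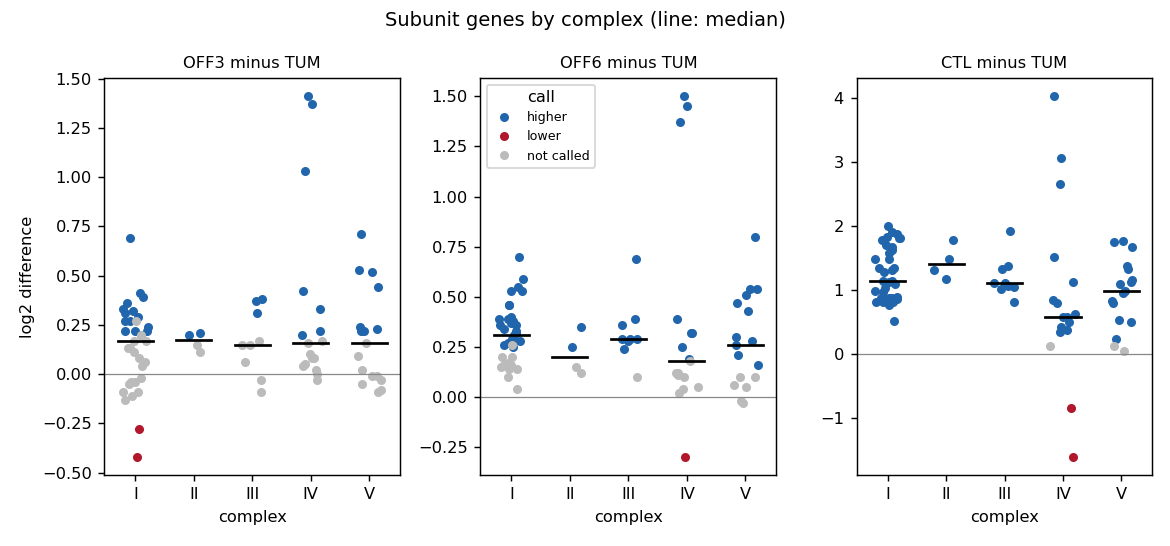
Log2 difference from TUM (vertical axes, whose scales differ between panels) for each member, by complex I to V, in OFF3, OFF6 and CTL. Points are genes, coloured by whether they were called higher, lower or not, and black lines are medians. The 3 points far above the rest in complex IV are Cox6a2, Cox7a1 and Cox8b.

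In complex I, 15 members rose and 2 fell at day 3, and 24 rose at day 6. That is 48.6% and 68.6% called, against 29.4% and 31.5% of all genes. Without OFF6 replicate 2, 28 rose at day 6, with 34.5% of all genes called. Ndufb2 rose most at day 3, from 6.77, 6.80 and 6.71 in TUM to 7.55, 7.33 and 7.48 in OFF3, and read 7.11, 7.29 and 7.08 in OFF6. Its differences were 0.69 ± 0.09 and 0.40 ± 0.09. Ndufb7 rose most at day 6, from 8.72, 8.83 and 8.77 in TUM through 8.94, 9.17 and 9.19 in OFF3 to 9.45, 9.60 and 9.35 in OFF6, with no overlap between the 3 groups. Both are accessory subunits of the membrane arm. Ndufa11, a membrane subunit, rose by 0.39 ± 0.07 at day 3 and 0.59 ± 0.07 at day 6, and Ndufb5 by 0.41 ± 0.06 and 0.37 ± 0.06. Ndufa4 rose by 0.36 ± 0.08 at each time. Its paralogue Ndufa4l2, induced by hypoxia, differed by 0.20 ± 0.12 (adjusted p = 0.244) and 0.33 ± 0.12 (adjusted p = 0.047), and its OFF6 and TUM arrays overlapped. The day 6 call was lost under 14 of 22 settings, 8 of which left out 1 array (0.25 to 0.44 over such fits, adjusted p up to 0.192), with TUM replicates 1 and 3, OFF6 replicates 1 and 3, CTL replicate 3 and each OFF3 array among them. The other 10 complex I members called at both times rose by 0.20 (Ndufb10) to 0.32 (Ndufa6) at day 3 and by 0.26 (Ndufb11) to 0.55 (Ndufs1) at day 6. The day 3 call of Ndufb10 was lost without TUM replicate 2 or 3 or OFF3 replicate 1 or 3 (0.18 to 0.25, adjusted p up to 0.137), and those of Ndufa6 and Ndufs1 without TUM replicate 2 or OFF3 replicate 3 (adjusted p up to 0.0904 and 0.0552). That of Ndufa6 at day 6 was lost without TUM replicate 2 or 3 or OFF6 replicate 3. A further 9 were called at day 6 and not at day 3, and 9 at neither time.

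The falls at day 3 were in Ndufa12 and Ndufv1, both of the NADH-oxidising module, where Ndufv1 binds NADH and flavin. Ndufa12 read 10, 9.88 and 9.93 in TUM, 9.53, 9.50 and 9.53 in OFF3, and 10.20, 9.90 and 10.14 in OFF6. All OFF3 arrays were below all others. The fall was -0.42 ± 0.08 (adjusted p = 0.00109), and from day 3 to day 6 it rose by 0.56 ± 0.08 (adjusted p = 0.00175). Ndufv1 read 10.41, 10.35 and 10.30 in TUM, 10.15, 10.05 and 10.02 in OFF3, and 10.62, 10.30 and 10.62 in OFF6. Its fall was -0.28 ± 0.09 (adjusted p = 0.0277) and its later rise 0.44 ± 0.09 (adjusted p = 0.0104). The fall was lost under 6 of 22 settings, among them the removal of TUM replicate 1 or 2 or OFF3 replicate 2 or 3 (-0.32 to -0.25 over fits that left out 1 array, adjusted p up to 0.105), while the fall of Ndufa12 was kept under all 22.

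In complex II, Sdhb and Sdhd, a membrane anchor, rose at both times. Sdhb read 10.03, 10.12 and 10.07 in TUM, 10.23, 10.24 and 10.36 in OFF3 and 10.29, 10.39 and 10.28 in OFF6, with TUM below the others. Sdhd rose by 0.21 ± 0.07 and 0.35 ± 0.07, and Sdhb by 0.20 ± 0.06 and 0.25 ± 0.06. The day 3 calls were lost without TUM replicate 1 or 3 or OFF3 replicate 3, and that of Sdhd also without TUM replicate 2 (Sdhb 0.16 to 0.23, adjusted p up to 0.0999, and Sdhd 0.15 to 0.27, adjusted p up to 0.129). Sdha, the catalytic subunit, differed by 0.15 ± 0.07 (adjusted p = 0.121) and 0.12 ± 0.07 (adjusted p = 0.224). At day 6 the 4 genes had a median difference of -1.20 from control muscle.

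In complex III, which passes electrons from ubiquinol to cytochrome c, 3 members rose at day 3 and 8 at day 6. That is 33.3% called at day 3, near the 29.4% of all genes, and 88.9% at day 6 against 31.5%. Those called at day 3 were the accessory subunits Uqcrh (0.38 ± 0.07), Uqcr11 (0.37 ± 0.10) and Uqcrb (0.31 ± 0.08). None of the 4 core and electron-carrying genes was called by limma then (2 at an unadjusted p under 0.05). By day 6 all 4 core genes were called: Cyc1 (cytochrome c1, 0.29 ± 0.09), Uqcrc1 (0.29 ± 0.08), Uqcrc2 (0.28 ± 0.07) and Uqcrfs1 (0.24 ± 0.07). Except for Uqcrc2 these calls were lost without TUM replicate 1 or 3 or OFF6 replicate 1 or 3 (adjusted p up to 0.0998 for Cyc1, 0.0718 for Uqcrc1 and 0.112 for Uqcrfs1). The day 3 call of Uqcr11 was lost without TUM replicate 1 or OFF3 replicate 3 (0.26 to 0.44, adjusted p up to 0.0739), and that of Uqcrb without TUM replicate 2 (0.25 to 0.37, adjusted p up to 0.0611). The largest day 6 rise was Uqcr11, which read 9.90, 10.04 and 10.05 in TUM, 10.24, 10.27 and 10.59 in OFF3 and 10.65, 10.77 and 10.64 in OFF6, without overlap between the groups. It differed from TUM by 0.69 ± 0.10 (adjusted p = 0.00023). Uqcr10, another small subunit, read 9.88, 9.97 and 9.97 in TUM, 9.69, 9.88 and 9.98 in OFF3 and 10.32, 10.28 and 10.41 in OFF6. Its OFF3 arrays overlapped TUM and its OFF6 arrays lay above both, and it rose between day 3 and day 6 by 0.49 ± 0.07 (adjusted p = 0.00341).

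In complex IV, which reduces oxygen, rises outside the isoform pairs were small. Of the 6 subunits with no muscle isoform, 3 rose at day 3 (Cox4i1, Cox5b and Cox6b1) and 4 at day 6 (Cox5a too), by 0.19 to 0.39. Cox4i1, which encodes subunit IV, rose by 0.22 ± 0.06 and 0.25 ± 0.06. The day 3 calls of Cox4i1 and Cox5b were lost without TUM replicate 2 or 3 or OFF3 replicate 3, for Cox4i1 also without TUM replicate 1 and for Cox5b without OFF3 replicate 2 (adjusted p up to 0.0797 and 0.125). That of Cox5a at day 6 was lost without TUM replicate 1 or 3 or OFF6 replicate 3 (0.16 to 0.20, adjusted p up to 0.0976). Cox7a2l, a relative of Cox7a2, rose by 0.42 ± 0.11 at day 3 (adjusted p = 0.0111). At day 6 OFF6 replicate 2 read 9.17 and the others 8.71, and the difference of 0.32 ± 0.11 (adjusted p = 0.0405) was lost under 10 of 22 settings. These included the fits without OFF6 replicate 2, any 1 TUM array, CTL replicate 2 or 3, or OFF3 replicate 2 (0.17 to 0.40, adjusted p up to 0.113). Its 2 probe sets gave 0.42 and 0.29 at day 3. None of the isoforms of other tissues (Cox4i2, Cox6b2, Cox7b2 and Cox8c) was called at either time, nor at an unadjusted p under 0.05.

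In ATP synthase, 8 members rose at day 3 and 11 at day 6 (10 without OFF6 replicate 2), and none fell. Of the 5 membrane subunits outside the c ring 3 and then 4 rose, of the 4 stalk subunits 2 and 3, and of the 5 head subunits 2 at each time. Without OFF6 replicate 2, the stalk subunits that rose at day 6 numbered 2. Atp5e read 8.75, 8.89 and 8.86 in TUM, 9.34, 9.25 and 9.47 in OFF3 and 9.33, 9.50 and 9.29 in OFF6, rising by 0.52 ± 0.08 and 0.54 ± 0.08. The 2 catalytic-head genes Atp5a1 and Atp5b, which encode the alpha and beta subunits, were not called at either time, at 0.02 and -0.09 on day 3 and 0.10 and -0.02 on day 6. Atp5g3 rose by 0.23 ± 0.08 and 0.54 ± 0.08, and the day 3 call was lost without any 1 TUM or OFF3 array or CTL replicate 2 or 3 (0.21 to 0.25, adjusted p up to 0.121). Atp5g1 differed by -0.01 ± 0.06 at day 3 and rose by 0.26 ± 0.06 at day 6 (adjusted p = 0.00392), and Atp5g2 differed by -0.03 ± 0.05 at each time. Atp5o, of the peripheral stalk, rose by 0.24 ± 0.06 and 0.47 ± 0.06, and the membrane subunits Atp5k by 0.53 ± 0.11 and 0.51 ± 0.11 and Atp5mpl by 0.44 ± 0.07 and 0.43 ± 0.07.

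Atp5l had the largest standard error of the members, with 10.41, 10.66 and 11.24 in OFF3 and 10.54, 11.31 and 10.74 in OFF6, against 9.97, 10.24 and 9.98 in TUM. Its differences were 0.71 ± 0.21 and 0.80 ± 0.21 for the brightest of 5 probe sets, and the day 3 call was lost without TUM replicate 1 or 3 or OFF3 replicate 3 (0.47 to 0.89, adjusted p up to 0.085). The other 4 ranged from -0.23 to 0.44 at day 3 and 0.29 to 0.48 at day 6. Probe sets of Atp5md also disagreed: at day 6 the brightest differed from TUM by 0.06 and a dimmer one by 0.61 (adjusted p = 0.000667). For those genes the choice of probe set decides the value or the call. In other members with several probe sets, calls at day 3 or day 6 differed for Uqcrb (0.24, adjusted p = 0.12, for a dimmer probe set at day 3), Ndufs3 (0.22, 0.148, at day 3), Atp5g1 (0.26, 0.0997, at day 6) and Cox7a2l (0.29, 0.127, at day 3 and 0.24, 0.196, at day 6).

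Between day 3 and day 6, 18 members rose and 1 fell, where 10.4% of all genes were called (6.05% higher and 4.38% lower, or 7.18% and 2.85% after median centring). The arrays of 30 members lay wholly above OFF3 and of 2 wholly below, against 12.4% and 8.73% of all genes. The median was 0.10 against 0.02, and 12 of the 18 were in complex I. Of the 6 measured complex I core genes, which carry electrons from NADH to ubiquinone, 5 rose: Ndufv1 (0.44), Ndufs7 (0.28), Ndufs1 (0.26), Ndufs8 (0.23) and Ndufs3 (0.23). Ndufs5 rose most, from 8.25, 7.95 and 7.86 in OFF3 to 8.77, 8.30 and 8.83 in OFF6 (0.62 ± 0.13, adjusted p = 0.0134). A probe set that Ndufs5 shares with Ndufs5-ps read 8.14 ± 0.13 (SD, n = 3) in OFF3 and 8.34 ± 0.30 in OFF6, a smaller step than that of the probe set used. In Ndufs5 and in Ndufa12 and Ndufv1, replicate 2 was the lowest of the OFF6 arrays. The count rests on single arrays: it was 7 without OFF3 replicate 1 (4.97% of all genes called), 10 without OFF3 replicate 2 (4.54%), 3 without OFF6 replicate 1 (2.61%), 4 without OFF6 replicate 3 (2.27%) and 28, of which 24 were higher and 4 lower, without OFF6 replicate 2 (24.4%). Over all genes the share called was 10.4% with every array, so it too was lower in the first 4 of these settings and higher in the last. Without that array the members gave 55 rises and 1 fall from TUM to OFF6, with 34.5% of all genes called. Of the 19 calls between the days, those of Ndufa12, Ndufa2 and Uqcr10 held whichever 1 array was left out. The call of Ndufs5 was lost without OFF3 replicate 2 or OFF6 replicate 1 or 3 (0.52 to 0.78, adjusted p up to 0.0751), and that of Ndufv1 without OFF6 replicate 1 or 3 (0.38 to 0.55, adjusted p up to 0.0615). The other 4 core genes each lost theirs without OFF6 replicate 1 or 3, among other arrays (adjusted p up to 0.128 for Ndufs3, 0.141 for Ndufs8, 0.152 for Ndufs7 and 0.199 for Ndufs1).

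At day 6 the chain remained far below control muscle. Of the 82 members, 75 were lower than in CTL and 2 higher, where 64.2% of all genes were called (28.1% higher and 36.1% lower, or 22.4% and 59.7% after centring on the 75th percentile). The arrays of 2 members lay wholly above CTL and of 77 wholly below, against 28.8% and 39.6% of all genes. The median was -0.83 against -0.09. Cox6a1 (1.31 ± 0.08) and Cox8a (0.89 ± 0.06) were the 2 higher members. Cox7a1 (-2.57 ± 0.07), Cox8b (-1.68 ± 0.09) and Uqcrfs1 (-1.68 ± 0.07) were the lowest, followed by Ndufb2 (-1.60 ± 0.09), Ndufb10 (-1.54 ± 0.07) and Sdhb (-1.54 ± 0.06). Sdha stood at -1.38, Cox5a at -1.33, Ndufs6 at -1.49 and Atp5e at -1.23. The 5 members not called were Atp5d, Atp5g2, Cox6b2, Cox7a2l and Cox7b2. A dimmer probe set was called for Atp5g2 (-0.32 ± 0.13, adjusted p = 0.0494) and for Cox7a2l (-0.47 ± 0.13, adjusted p = 0.00794).

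**Figure D4:**
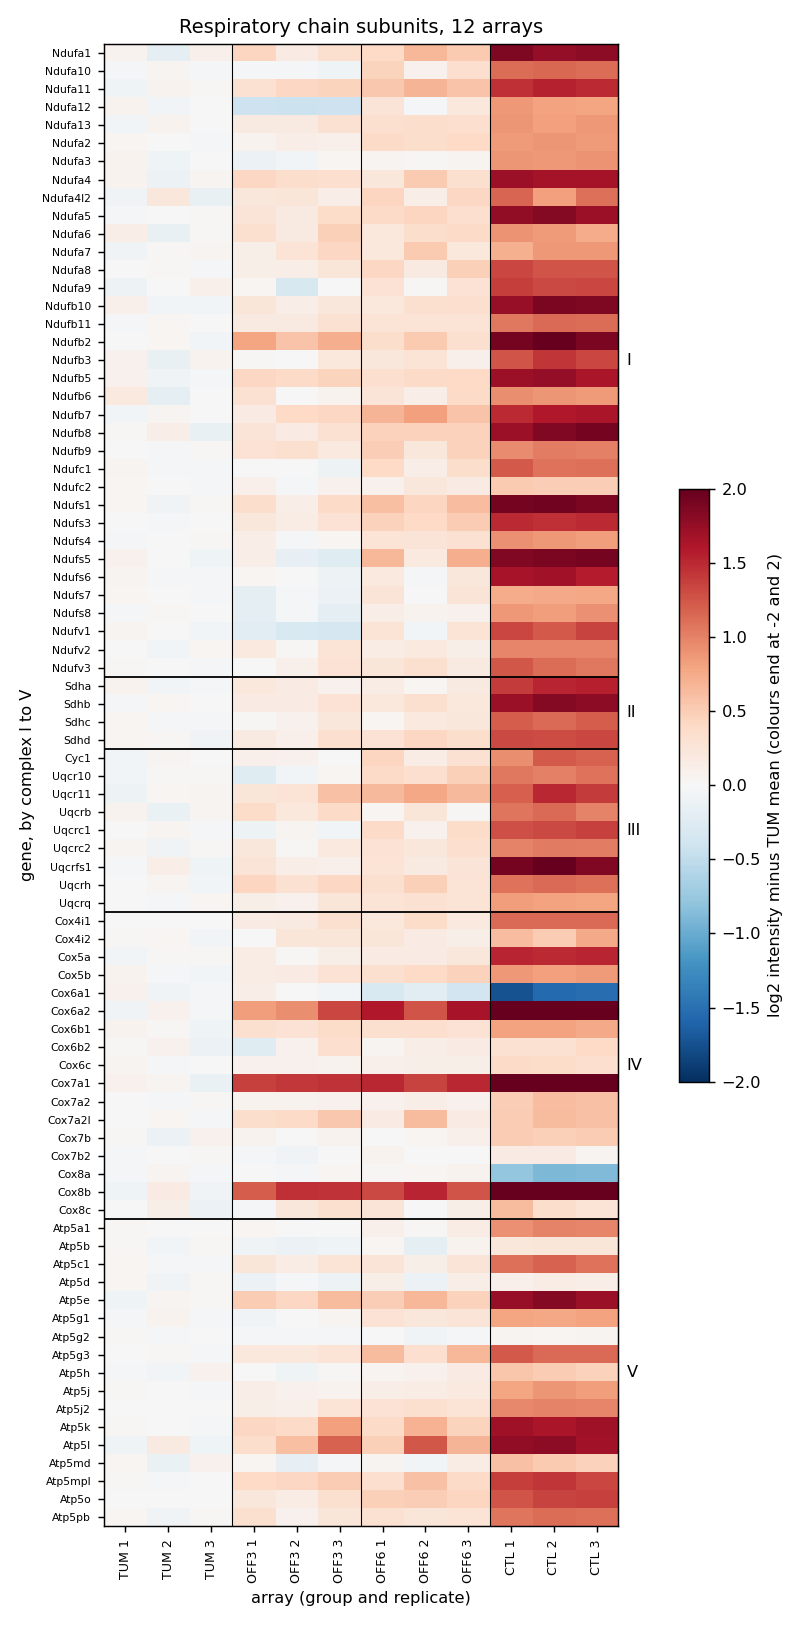
All 82 members (rows, by complex I to V) on the 12 arrays (columns, by group and replicate), coloured by log2 intensity minus the TUM mean, with colours ending at -2 and 2. Red is above TUM and blue below. The CTL columns are red in nearly every row and blue for Cox6a1 and Cox8a, and in the OFF3 and OFF6 columns the deepest red is in Cox6a2, Cox7a1 and Cox8b.

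The genes around the chain were read from lists chosen with earlier results of these data known. Of 42 measured assembly factors, which build the complexes but are not part of them, 33 were higher and 1 lower in control muscle than in TUM (median 0.77). At day 3, 4 rose and 7 fell (median -0.08), and at day 6, 10 rose and 1 fell (0.11), or 15 and 0 without OFF6 replicate 2. The share called was 26.2% at each time, against 29.4% and 31.5% of all genes, and 81.0% between muscle and tumour against 76.2%. These shares, taken over both directions, lie near the background. By direction, all genes split into 45.9% higher and 30.3% lower between muscle and tumour (median 0.15), so the assembly factors leaned further to higher in muscle. Of all genes, 13.4% rose and 16.0% fell at day 3, and 14.9% rose and 16.6% fell at day 6. Ndufaf2, a complex I assembly factor that is replaced by Ndufa12 in the finished complex, fell by 0.60 at day 3 (± 0.10, adjusted p = 0.000642), and Atpaf2, a chaperone of ATP synthase, by 0.47 (± 0.07, adjusted p = 0.000432). Cox14, which acts on the early assembly of COX1, rose by 0.46 ± 0.06 and 0.64 ± 0.06.

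Of 26 genes of the citrate cycle and of electron supply, all 26 were higher in control muscle (median 1.40). At day 3, 3 rose and 4 fell, and at day 6, 11 rose and 3 fell (12 and 3 without OFF6 replicate 2). The share called was 26.9% at day 3, near the 29.4% of all genes. It was 53.8% against 31.5% at day 6, and 100% against 76.2% between muscle and tumour. Coq8a and Coq9, of ubiquinone synthesis, rose at both times (Coq8a 0.81 ± 0.11 and 1.36 ± 0.11, Coq9 0.63 ± 0.07 and 0.70 ± 0.07). Gpd2, the mitochondrial glycerol phosphate dehydrogenase, moved away from control muscle, by -0.51 ± 0.06 and -0.92 ± 0.06, and Suclg2, the GTP-forming subunit of succinyl-CoA ligase, by -0.80 ± 0.10 and -0.88 ± 0.10. Both stood above TUM in control muscle, at 2.33 and 0.72.

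Of 17 regulators of mitochondrial biogenesis, 12 were higher and 3 lower in control muscle. Nrf1 and Gabpb1, of GABP, were among the 3, at -0.59 ± 0.07 and -1.19 ± 0.11 from TUM. Both were also called lower than TUM at day 3 (-0.26 ± 0.07 and -0.34 ± 0.11) and day 6 (-0.39 ± 0.07 and -0.40 ± 0.11). Gabpa was not called in any of these comparisons with TUM. Ppargc1a, which encodes PGC-1alpha, read 6.40 in TUM, 7.47 in OFF3, 7.31 in OFF6 and 10.81 in CTL at the group mean, with rises of 1.08 ± 0.15 (adjusted p = 0.000181) and 0.91 ± 0.15 (adjusted p = 0.00056). Esrrg, an estrogen-related receptor, differed by 0.37 ± 0.15 at day 3 (adjusted p = 0.0979) and rose by 1.58 ± 0.15 at day 6 (adjusted p = 6.67e-06). Pprc1, a PGC-1 relative, and Tfam, which packs mitochondrial DNA, fell at day 3, by -0.52 ± 0.10 and -0.45 ± 0.14. The list had 3 rises and 4 falls at day 3, and 5 rises and 2 falls at day 6. That is 41.2% called at each time, against 29.4% and 31.5% of all genes, and 88.2% against 76.2% between muscle and tumour.

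Of 11 genes of energy export, 5 rose at day 3 and 4 at day 6. The share called was 45.5% at day 3 against 29.4% of all genes, and 36.4% at day 6, near the 31.5% of all genes. Ckmt2, the sarcomeric mitochondrial creatine kinase, rose by 1.5 ± 0.17 and 1.11 ± 0.17, Ucp3, an uncoupling protein of muscle, by 0.94 ± 0.08 and 1.08 ± 0.08, and myoglobin (Mb) by 0.92 ± 0.07 and 1.26 ± 0.07. Slc25a4 is the muscle form of the ADP/ATP carrier and Slc25a5, named after its values were seen, the general form. Control muscle had more Slc25a4 (1.55 ± 0.05) and less Slc25a5 (-1.29 ± 0.08) than TUM. At day 3 Slc25a4 rose by 0.31 ± 0.05, and at day 6 it differed from TUM by 0.05 ± 0.05 (adjusted p = 0.506).

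Of 10 genes of the mitochondrial outer membrane and protein import, 7 fell and none rose at day 3, and 3 fell and none rose at day 6 (1 rose without OFF6 replicate 2). The share called was 70.0% at day 3 against 29.4% of all genes, and 30.0% at day 6, near the 31.5% of all genes. Hspd1, the matrix chaperonin, fell by -0.86 ± 0.11 and -0.76 ± 0.11, and the import pore Tomm40 by -0.61 ± 0.09 and -0.44 ± 0.09. In control muscle 5 of the 10 were higher and 5 lower than in TUM, with a median of 0.00.

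Markers of cell division and of other cell types were also read. Of all genes, 29.4% were called at day 3 and 31.5% at day 6. Of 15 cell division markers, 14 fell at day 3 and 15 at day 6, with a summed intensity of 18000 to 18200 in TUM, 5080 to 7190 in OFF3, 5770 to 6220 in OFF6 and 2570 to 2650 in CTL. Of 10 fibroblast markers, 9 rose at day 3, and at day 6, 8 rose and 1 fell. Their summed intensity was 18900 to 19100 in TUM, 31400 to 33200 in OFF3, 23500 to 31900 in OFF6 and 13400 to 14200 in CTL. The sum hides a split in control muscle, where 5 of the 10 fibroblast markers were higher and 4 lower than in TUM (median 0.45). Endothelial markers (10 of 10 higher at day 3, 7 at day 6, or 6 without OFF6 replicate 2) summed to 4480 to 4560 in TUM, 6620 to 7110 in OFF3, 5240 to 6150 in OFF6 and 7550 to 7740 in CTL. Macrophage markers (2 of 10 higher at day 3, 1 lower at day 6, or 5 lower without OFF6 replicate 2) summed to 27000 to 28000 in TUM, 32500 to 33600 in OFF3, 24200 to 33200 in OFF6 and 4470 to 5010 in CTL. The shares called of the cell division, fibroblast and endothelial markers lay above those of all genes at both times. The share of the macrophage markers lay below them at both times. Without OFF6 replicate 2 it lay above at day 6, where 34.5% of all genes were called. The part of cell mixture in the subunit values was not tested.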

How the data were processed

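The 12 Affymetrix arrays were deposited by the authors as normalized intensity values per probe set on a linear scale, made with RMA per the submitters' processing notes (its version is not given in the sources used here). By the platform's annotation 21640 of 34760 probe sets had 1 gene symbol, 1321 several and 11799 none. From these values log2 was taken, and each of 19937 genes was represented by its probe set of 1 symbol with the highest mean over all arrays (16 of the 82 members had several). Limma 3.58.1 in R 4.3.3 fitted 1 model of 4 group means, and 3 more features held the within-array difference of each isoform pair. Tests were two-sided, with Benjamini-Hochberg adjustment over all 19940 features and a call at 0.05. Replicate n was 3 arrays per group, which limits precision, and p-values measure the spread between arrays, which may be technical. Same-numbered arrays did not deviate together (3 of 18 correlations over 0.1), so no pairing was used.

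Named by rule were the tissue isoforms and their paralogues, the up to 3 largest called rises and falls per complex and comparison, members called against the majority of their complex, and the up to 3 largest called changes per list. Other genes named were picked with their values in view. The members and lists were chosen with earlier results of these data known. Promoter letters are RefSeq's (GRCm38.p6), read with Python 3.11.15. The fit was tested on simulated data, and 22 alternative settings were run.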

Additional observations from a re-analysis of the deposited data

Results flagged for a closer look

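Members whose change from TUM differed between day 3 and day 6 are given here, each by the limma test of OFF6 minus OFF3 itself, in log2 units with its adjusted p. Both changes share the TUM arrays. The Cox6a2 minus Cox6a1 pair differed by 0.80 (adjusted p = 0.015), with Cox6a2 at 0.47 (0.0384) and Cox6a1 at -0.33 (0.0264).

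In complex I the members that were below or level with TUM at day 3 were Ndufa12 (0.56, adjusted p = 0.00175), Ndufv1 (0.44, 0.0104), Ndufs5 (0.62, 0.0134), Ndufa10 (0.34, 0.0221), Ndufc1 (0.33, 0.0185), Ndufs7 (0.28, 0.0305), Ndufs8 (0.23, 0.0322) and Ndufs4 (0.23, 0.0306). Their differences from TUM at day 3 ran from -0.42 to 0.04 and at day 6 from 0.10 to 0.53. Ndufa2 (0.27, 0.0084), Ndufb7 (0.37, 0.0187), Ndufs1 (0.26, 0.0487) and Ndufs3 (0.23, 0.025) were above TUM by 0.11 to 0.33 at day 3 and by 0.38 to 0.70 at day 6.

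In complex III, Uqcr10 differed by 0.49 (adjusted p = 0.00341) and Uqcrc1 by 0.32 (0.0269), from -0.09 and -0.03 at day 3. In complex V, Atp5g1 differed by 0.26 (0.0152), Atp5g3 by 0.31 (0.0291) and Atp5o by 0.24 (0.0291). Of these calls, those of Ndufa12, Ndufa2 and Uqcr10 held whichever 1 array was left out, and the other 16 of the 19 single members lost theirs without at least 1 array, among them OFF6 replicate 1 in each case.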

How the results depend on the processing

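Of the 15 isoform pair results, 12 kept their direction and call under all 22 settings, and the Cox7a1 minus Cox7a2 step between day 3 and day 6 was called under none (-0.01 to 0.09). The Cox6a2 minus Cox6a1 step between day 3 and day 6 was lost when only the 6 arrays compared were fitted (0.80, adjusted p = 0.122), at an adjusted p under 0.01 (0.80) and in 4 fits that left out 1 array (0.64 to 0.99 over all such fits). With array weights the Cox8b minus Cox8a step was called at -0.23 (adjusted p = 0.00702). Members called between day 3 and day 6 numbered 48 with array weights (58.5% of members and 42.2% of all genes), 0 in limma with only 6 arrays (27 at an unadjusted p under 0.05) and 3 at an adjusted p under 0.01 (3.66% and 2.34%), and 3 to 28 when 1 array was left out. From TUM to OFF3 they numbered 17 at an adjusted p under 0.01 (20.7% of members, near the 19.7% of all genes) and 22 to 40 when 1 array was left out, with 22 without OFF3 replicate 3. Leaving out 1 array gave 42 to 56 from TUM to OFF6, 78 to 81 against CTL, and 76 to 78 from CTL to OFF6. Pvalb from TUM to OFF6 turned to -0.54 with array weights and -0.53 without OFF6 replicate 2 (-0.53 to 0.43 when 1 array was left out). With array weights 11175 genes of all were called at day 3 against 5868, 10545 at day 6 against 6279, and 8422 between the days against 2080, where 6 arrays gave 30. The cause of these shifts was not tested, beyond the fewer arrays in a fit of 6. With the replicate block the members called were 33 (OFF3 against TUM), 52 (OFF6 against TUM), 79 (CTL against TUM), 14 (OFF6 against OFF3) and 76 (OFF6 against CTL), and no pair call changed. In that order these are 40.2%, 63.4%, 96.3%, 17.1% and 92.7% of members, against 27.5%, 29.5%, 74.3%, 8.3% and 61.6% of all genes. Among single genes, 563 of the recomputed values lost a call and 293 gained one. Dim probe sets lie near the array's background, where differences are compressed, and intensities give no depth.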

Other observations

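Probe sets for subunits encoded by mitochondrial DNA lay outside the naming pattern and were read on their own, with p-values adjusted over 21640 probe sets. COX2, a catalytic subunit of complex IV, read 12.46 ± 0.12 (SD, n = 3) in TUM, 12.39 ± 0.12 in OFF3, 12.29 ± 0.05 in OFF6 and 12.54 ± 0.01 in CTL. Control muscle thus differed from TUM by 0.08 ± 0.08 in limma (adjusted p = 0.355), where the median nuclear-encoded member differed by 1.11. ND3, of complex I, had 2 probe sets, which were higher in control muscle by 0.24 ± 0.07 (adjusted p = 0.00892) and 0.54 ± 0.08 (adjusted p = 5.56e-05). At day 3 they differed from TUM by 0.07 ± 0.07 and -0.02 ± 0.08, and at day 6 by -0.09 ± 0.07 and -0.18 ± 0.08, without a call. Against control muscle, OFF6 was called lower in limma for COX2 (-0.24 ± 0.08, adjusted p = 0.0156). The 2 ND3 probe sets were called lower there too, by -0.32 ± 0.07 (adjusted p = 0.00156) and -0.72 ± 0.08 (adjusted p = 5.12e-06). Such intensities lie near the top of the scale, and whether that limits the differences was not tested.

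Some subunit genes share their probe sets with a near-identical copy. The brightest shared by Cox7c and Gm12338 read 12.82 ± 0.03 in CTL, 12.49 ± 0.06 in TUM, 12.45 ± 0.09 in OFF3 and 12.44 ± 0.05 in OFF6 (SD, n = 3). Of their other probe sets, one read 11.89 ± 0.03 in CTL, 11.50 ± 0.09 in TUM, 11.48 ± 0.09 in OFF3 and 11.51 ± 0.04 in OFF6, and the dimmest 9.24 ± 0.20 in CTL, 7.95 ± 0.49 in TUM, 7.75 ± 0.68 in OFF3 and 7.31 ± 0.12 in OFF6. The brightest shared by Ndufb4 and Ndufb4b read 12.62 ± 0.05 in CTL, 11.73 ± 0.02 in TUM, 11.76 ± 0.09 in OFF3 and 11.86 ± 0.02 in OFF6. Their dimmer probe set had lower means after withdrawal than in TUM, at 8.24 ± 0.17 in CTL, 6.99 ± 0.28 in TUM, 6.62 ± 0.43 in OFF3 and 6.37 ± 0.35 in OFF6. The probe set shared by Ndufs5 and Ndufs5-ps read 9.68 ± 0.14 in CTL and 8.14 ± 0.09 in TUM. None of these differences was tested.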
